A study of Drosophila melanogaster with 4 samples.

Results

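Vacuolar proton pump genes were followed in wing imaginal discs (larval epithelia from which the adult wing and dorsal thorax develop) of 3rd-instar Drosophila melanogaster larvae raised at 25 degrees. Every probe set whose single gene symbol begins with Vha in the array's annotation was taken, which gave 32 probe sets for 31 genes of 11981 named genes. A gene was read from its probe set with the highest mean, and Vha16-1 alone had more than 1. There was 1 Affymetrix array for each of 4 genotypes, all in a yw background and all carrying the en-Gal4 driver: both UAS-PI3K ov, overexpressing PI3K, and 1 copy of UAS-Hdac3 RNAi, which targets Hdac3 (PI3K plus Hdac3 RNAi), UAS-PI3K ov only (PI3K), UAS-Hdac3 RNAi over + only (Hdac3 RNAi), and neither, with en-Gal4 over + (control). The driver is active in the posterior compartment, so every disc sample holds transgene-expressing and non-expressing cells together, and the control carries the driver with no UAS transgene. Values are intensities on a linear scale, rescaled so that the arrays share 1 trimmed mean.

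The vacuolar ATPase is a rotary motor that spends ATP to move protons into lysosomes, endosomes and secretory vesicles. Its peripheral V1 sector (subunits A to H) hydrolyses ATP, and its membrane sector V0 (subunits a, c, c″, d and e) carries the protons. In Drosophila discs the pump is known for its part in endosomal Notch signalling and in planar polarity. In animal cells it also takes part in the amino acid sensing that switches on TOR at the lysosome. Most subunits are encoded by small gene families, of which 1 member usually serves most tissues and the others serve few.

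Each genotype has 1 array, so the spread between replicates is unknown, and no test was run. The number of arrays limits the precision. As a yardstick chosen after the values were seen, log2 ratios were compared among probe sets for 1 gene, and the SD within genes was 0.147 to 0.242 by comparison, over 431 genes with several probe sets at or above the floor on all arrays. The floor, 26.9, is the 90th percentile of 125 probe sets for odorant and gustatory receptors, whose median was 10.4. All 12 measured wing disc markers, among them nub, vg and ap, were at or above it on every array. Hdac3 and the overexpressed PI3K are not analysed here, so the genotypes were not checked against their transgenes. In whole discs, fewer cells of a type and less RNA per cell cannot be told apart.

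The 31 genes separated into 17 that reached the floor on each of the 4 arrays, 11 that were under it on all 4, and 3 that crossed it. The 17 covered every V1 subunit except A, every V0 subunit, and the AC45 accessory proteins: 7 genes of V1, 8 of V0 and 2 accessory genes. Subunit A, the catalytic ATPase subunit, was represented by Vha68-3 alone, which lay between 5.16 and 6.72, while Vha68-1 and Vha68-2 are not analysed here, so no level of subunit A as a whole is given. Intensities of different probe sets do not rank the amounts of their transcripts, so each gene is compared only with itself across the arrays.

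In the V1 sector, Vha55, the B subunit that forms the ATPase ring with A, had 1401 in PI3K plus Hdac3 RNAi, 1360.2 in PI3K, 1432 in Hdac3 RNAi and 1496 in control discs. The E subunit gene Vha26, part of the peripheral stalks, had 1716 in PI3K plus Hdac3 RNAi, 1555 in PI3K, 2031 in Hdac3 RNAi and 1768 in control. Vha13, the G subunit that pairs with E in those stalks, had 3436 in PI3K plus Hdac3 RNAi, 3768 in PI3K, 3338 in Hdac3 RNAi and 3279 in control. The partners E and G therefore differed in which array was lowest and highest: Vha26 was lowest in PI3K and highest in Hdac3 RNAi discs, and Vha13 was highest in PI3K and lowest in control discs.

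The central rotor stalk behaved like Vha13. Vha36-1, the D subunit, had 2376 in PI3K plus Hdac3 RNAi, 2663 in PI3K, 2318 in Hdac3 RNAi and 2331 in control. Vha14-1, the F subunit of the same stalk, had 3131 in PI3K plus Hdac3 RNAi, 3428 in PI3K, 3013 in Hdac3 RNAi and 2980.1 in control. Both were highest in PI3K discs, with the other 3 arrays close together.

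The remaining V1 genes encode subunits that bear on assembly. Vha44, the C subunit that joins V1 to V0, had 523 in PI3K plus Hdac3 RNAi, 526 in PI3K, 579.6 in Hdac3 RNAi and 523 in control, so the Hdac3 RNAi array alone stood above the rest. VhaSFD, the H subunit that holds free V1 inactive, had 1765 in PI3K plus Hdac3 RNAi, 1865 in PI3K, 1697 in Hdac3 RNAi and 1852 in control.

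In the V0 sector, Vha16-1 encodes the proteolipid c that forms the proton-carrying ring. It had 4473 in PI3K plus Hdac3 RNAi, 3948 in PI3K, 5171 in Hdac3 RNAi and 4506 in control. Its other probe set, whose probes may match transcripts of several genes or isoforms, had 1375 in PI3K plus Hdac3 RNAi, 1369 in PI3K, 1622 in Hdac3 RNAi and 1488 in control. Both probe sets were lowest in PI3K and highest in Hdac3 RNAi discs, which is also the order of those 2 arrays for Vha26.

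VhaPPA1-1 encodes c″, the odd member of the same ring, and ran the other way. It had 2406 in PI3K plus Hdac3 RNAi, 2715 in PI3K, 2229 in Hdac3 RNAi and 2589.7 in control. VhaAC39-1, the d subunit that couples the rotor stalk to the ring, had 935 in PI3K plus Hdac3 RNAi, 1130.3 in PI3K, 1067 in Hdac3 RNAi and 1129 in control. The array with both transgenes alone stood below the rest.

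The a subunit anchors the stator and lines the proton path. Vha100-2 had 841 in PI3K plus Hdac3 RNAi, 900.1 in PI3K, 799 in Hdac3 RNAi and 823 in control. Vha100-1, known for its role in neurons, had 571 in PI3K plus Hdac3 RNAi, 622 in PI3K, 552 in Hdac3 RNAi and 622 in control. Both were lowest in Hdac3 RNAi discs, and both have probe sets that may match several transcripts, as do Vha26, Vha44, Vha55 and VhaAC45.

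The e subunit is a small membrane protein, and 3 of its 4 genes were expressed. VhaM9.7-b had 2354 in PI3K plus Hdac3 RNAi, 2355 in PI3K, 2285 in Hdac3 RNAi and 2246 in control, with all arrays close together. VhaM9.7-c had 384 in PI3K plus Hdac3 RNAi, 382 in PI3K, 361 in Hdac3 RNAi and 406 in control, where it was highest. VhaM9.7-d had 53.8 in PI3K plus Hdac3 RNAi, 46.2 in PI3K, 48.0 in Hdac3 RNAi and 45.8 in control, so it lay just inside the limit for a broadly expressed gene, and a stricter floor of 47.5 leaves it out. Of the accessory genes, VhaAC45 had 1309 in PI3K plus Hdac3 RNAi, 1471 in PI3K, 1223 in Hdac3 RNAi and 1291 in control. VhaAC45RP, an AC45-related gene known for neuronal synaptic vesicles, stayed between 122 and 126 on the 4 arrays. Of 9 neuron and glia markers, 4 reached the floor on all arrays and 4 on none, with the synaptic gene nSyb at 24.2 in PI3K plus Hdac3 RNAi, 35.9 in PI3K, 21.2 in Hdac3 RNAi and 28.5 in control. Their part in the signal of Vha100-1 and VhaAC45RP was not tested.

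**Figure D1:**
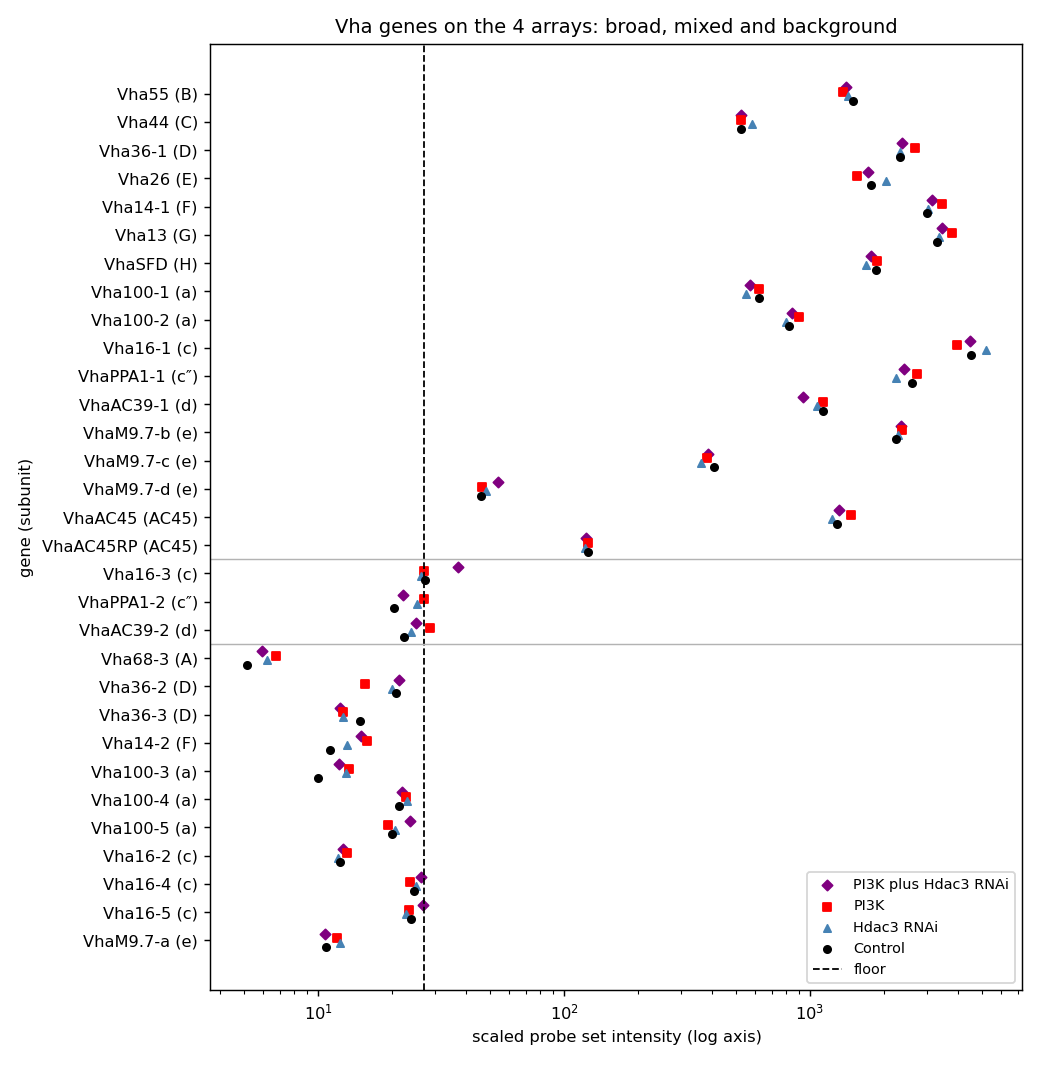
Scaled intensity (log axis) of the 31 Vha genes, by gene and subunit, with 1 point per array and the floor of 26.9 as a dashed line. From top to bottom lie the 17 broadly expressed genes, the 3 that crossed the floor and the 11 under it on every array, and the 4 points of a broadly expressed gene sit close together.

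The other 14 genes are alternative isoforms of subunits A, D, F, a, c, c″, d and e. Under the floor on every array were Vha68-3, Vha36-2, Vha36-3, Vha14-2, Vha100-3, Vha100-4, Vha100-5, Vha16-2, Vha16-4, Vha16-5 and VhaM9.7-a, with values of 5.16 to 26.7. Their arrays are not ordered here, because values under the floor are not told apart from background. Just outside the limit, the highest values of Vha16-5 and Vha16-4 were 26.7 and 26.2. Of the 3 genes that crossed the floor, Vha16-3 had 36.98 in PI3K plus Hdac3 RNAi, 27.05 in PI3K, 26.3 in Hdac3 RNAi and 27.2 in control. The array with both transgenes stood above the other 3, which lay at the floor. The highest array of Vha16-3 was 1.41 times its lowest, a wider range than for any of the 17. Its lowest value was under the floor, however, and the ratio was 1.40 for Vha14-2, which is background on every array. VhaAC39-2 passed the floor in PI3K discs alone, at 28.5, against 22.4 in control. VhaPPA1-2 did so only at the value of the floor, with 26.9 in PI3K and 20.3 in control. In the RefSeq gene order Vha16-2 and Vha16-3 are neighbours, as are Vha100-2 and Vha100-4, and 1 gene lies between VhaPPA1-1 and VhaPPA1-2. The last 2 pairs each set a broadly expressed gene beside one at or under the floor.

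Across genotypes the 17 genes varied little. The ratio of a gene's highest array to its lowest had a median of 1.15, beside 1.19 over the 7301 genes at or above the floor on all arrays. It ran from 1.03 for VhaAC45RP to 1.31 for Vha16-1 and Vha26. Of all genes, 25.3% had a wider range than Vha16-1. The PI3K array was the highest of the 4 for 11 of the 17 genes, beside 40.9% of all genes, and the Hdac3 RNAi array was the lowest for 8, beside 35.6% of all genes. None of the 17 was at least 2-fold apart in any of the 5 comparisons, and the share of all measured genes that far apart was 1.24% in PI3K against control, 0.554% in Hdac3 RNAi against control, 0.703% in PI3K plus Hdac3 RNAi against control, 1.23% in PI3K plus Hdac3 RNAi against PI3K and 0.510% in PI3K plus Hdac3 RNAi against Hdac3 RNAi.

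In PI3K discs the pump genes did not move as a block against control. Of the 17, 13 had a log2 ratio above 0, beside 54.4% of 7436 measured genes, but 6 of the 17 lay within 0.02 of 0. The median was 0.01, beside 0.02 over all measured genes. The count above 0 was 7 without rescaling of the arrays and 8 after the median of genes of like span was subtracted, and the median turned to -0.02 in both cases. At the upper end stood Vha14-1 (log2 ratio 0.20), Vha13 (0.20), Vha36-1 (0.19) and VhaAC45 (0.19), followed by Vha100-2 (0.13). At the lower end stood Vha16-1 (-0.19), Vha26 (-0.18) and Vha55 (-0.14). None of the 17 exceeded the probe set SD of this comparison, 0.236, which 28.8% of all genes did. The signs of the 5 upper genes, the 3 lower genes and VhaM9.7-c (-0.09) held under all 8 processing alternatives. For these genes a changed floor cannot alter the ratio, and averaging probe sets can alter only that of Vha16-1. The sizes and the order held less well. After the median of genes of like span was subtracted, Vha14-1 was at 0.07, Vha13 at 0.096 and Vha36-1 at 0.095. Vha100-2 was then at 0.27, past the SD of 0.236, with Vha16-1 at -0.10, Vha26 at -0.14 and Vha55 at -0.094.

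**Figure D2:**
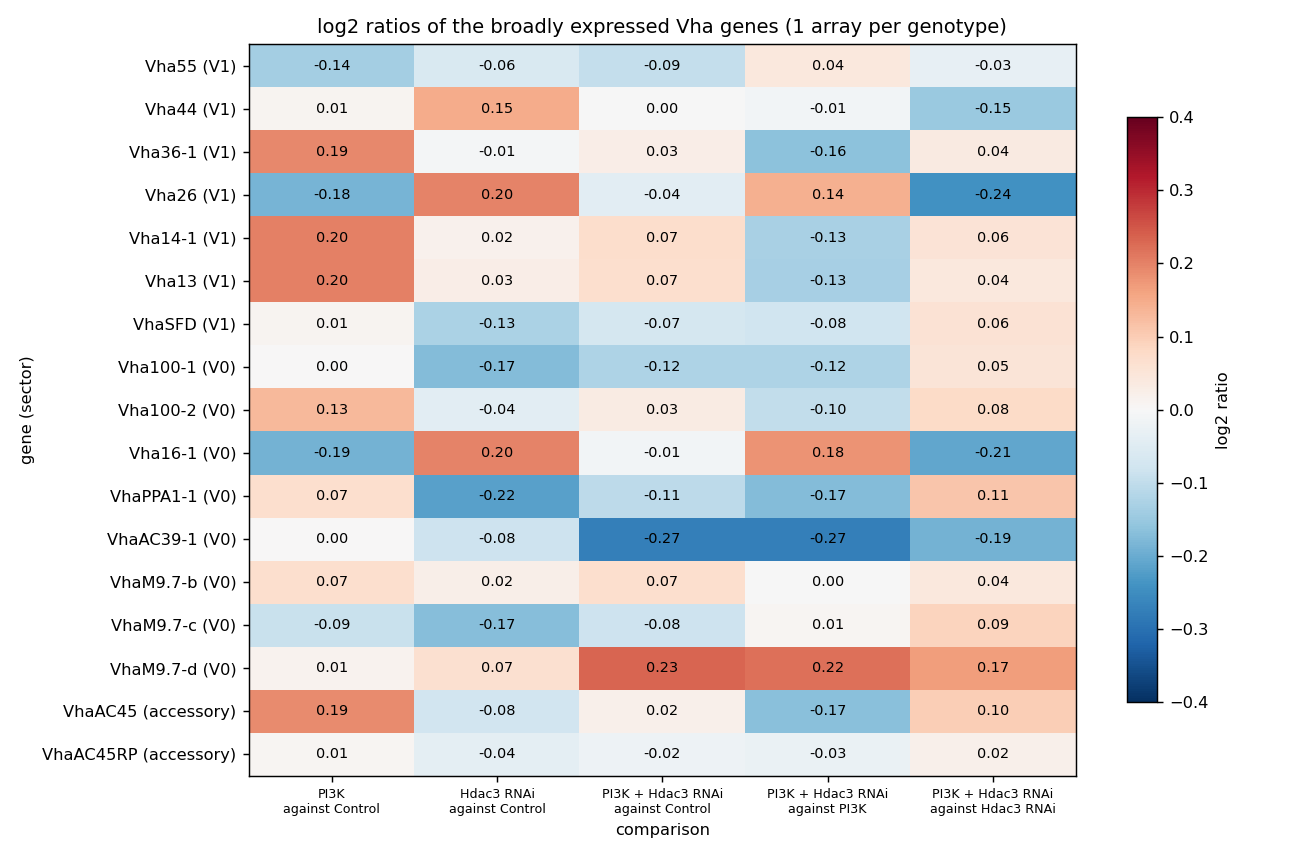
Log2 ratios of the 17 broadly expressed Vha genes (rows, with their sector) in the 5 comparisons (columns), 1 array per genotype; colour and number give the same value. Vha26 and Vha16-1 carry signs opposite to Vha13, Vha14-1 and Vha36-1 in PI3K against control, and the ratios lie between -0.27 and 0.23.

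Hdac3 RNAi alone came with a different set of small differences from control. The median over the 17 genes was -0.04, beside -0.03 over all genes, and 7 of 17 lay above 0, beside 42.6% of 7407 genes. Vha26 and Vha16-1 were the highest, both at 0.20, followed by Vha44 at 0.15. VhaPPA1-1 was the lowest at -0.22, with Vha100-1 and VhaM9.7-c at -0.17 and VhaSFD at -0.13. Vha16-1, VhaPPA1-1 and Vha26 exceeded the probe set SD of 0.179, which 30.0% of all genes did. The 2 proteolipid genes of the ring, Vha16-1 and VhaPPA1-1, were thus the farthest apart of any V0 genes. Their signs held under the 8 alternatives, though a changed floor cannot alter these ratios, nor averaging probe sets that of VhaPPA1-1. The median itself turned to 0.01 with median scaling.

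In discs with both transgenes most subunits were within 0.12 log2 of control. The median was -0.01, beside -0.02 over all genes, and 7 of 17 lay above 0, beside 45.2% of 7397 genes. VhaAC39-1 was lowest at -0.27 and VhaM9.7-d highest at 0.23, and these 2 alone passed the probe set SD of 0.180, which 24.5% of all genes did. Vha16-1 (-0.01, and -0.11 at its other probe set) and Vha26 (-0.04) were on opposite sides of control with PI3K and with Hdac3 RNAi alone.

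Set against PI3K alone, discs with both transgenes had lower values for most subunits. The median was -0.08, beside -0.03 over all genes, and 5 of 17 lay above 0, beside 43.7% of 7475 genes. The lowest were VhaAC39-1 (-0.27), VhaPPA1-1 (-0.17), VhaAC45 (-0.17) and Vha36-1 (-0.16), and the highest were VhaM9.7-d (0.22), Vha16-1 (0.18) and Vha26 (0.14). The other probe set of Vha16-1 was at 0.0068 here, and the mean of both at 0.093. VhaAC39-1 alone passed the probe set SD of 0.242, which 26.9% of all genes did. This comparison shares the PI3K array with that of PI3K against control.

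Set against Hdac3 RNAi alone, discs with both transgenes had slightly higher values for most subunits. The median was 0.04, beside 0.02 over all genes, and 12 of 17 lay above 0, beside 56.5% of 7456 genes. Vha26 (-0.24), Vha16-1 (-0.21), VhaAC39-1 (-0.19) and Vha44 (-0.15) were lower and VhaM9.7-d (0.17) higher by more than the probe set SD of 0.147, a size that 27.5% of all genes passed. The median turned to -0.01, and the count above 0 to 7, after subtraction of the median of genes of like span.

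Each transgene can be followed in a pair of contrasts that share no array, with 1 array per genotype. Over 7301 genes the 2 contrasts of a pair had a Pearson correlation of 0.08 for PI3K and 0.28 for Hdac3 RNAi. Over the 17 Vha genes it was 0.59 and 0.61. For PI3K, one contrast is PI3K against control, and the other sets both transgenes against Hdac3 RNAi alone. The direction was the same in both for 14 of the 17 genes, 11 higher and 3 lower, beside 67.2% of 7301 genes. At a size of at least 0.1 log2 in both it was the same for 2 genes, Vha16-1 (-0.19 and -0.21) and Vha26 (-0.18 and -0.24), beside 24.7% of all genes. The minimum of 0.1 was chosen after the values were seen, and VhaAC45 (0.19 and 0.098) fell just under it. The count was 3 without rescaling, with quantile normalization and after subtraction of the median of genes of like span. For Hdac3 RNAi, 11 of 17 had the same direction, 3 higher and 8 lower, beside 68.4% of all genes. With the same minimum there were 4, beside 30.9% of all genes: Vha16-1 (0.20 and 0.18), Vha26 (0.20 and 0.14), VhaPPA1-1 (-0.22 and -0.17) and Vha100-1 (-0.17 and -0.12). With the mean of both probe sets Vha16-1 was at 0.161 and 0.093, and the count was 3. The count was also 3 after subtraction of the median of genes of like span, without VhaPPA1-1, or of like level, without Vha100-1. It was 5 without rescaling and with median or quantile scaling. Vha26 was thus lower with PI3K and higher with Hdac3 RNAi in either background. The same held for Vha16-1, except that its other probe set hardly differed (0.0068) between PI3K plus Hdac3 RNAi and PI3K. The pair for PI3K and the pair for Hdac3 RNAi use the same arrays. Any gene lowest in PI3K discs and highest in Hdac3 RNAi discs has all these signs, so the pairs are not separate evidence. Of the 17 genes, several higher in both PI3K contrasts lay close to 0 in PI3K against control, such as Vha100-1 (0.00043) and VhaAC45RP (0.0069). Without rescaling, 12 of 17 had the same direction for PI3K, 7 of them higher, beside 65.5% of all genes, and after subtraction of the median of genes of like span 10 of 17 did, 4 of them higher, beside 63.9%.

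**Figure D3:**
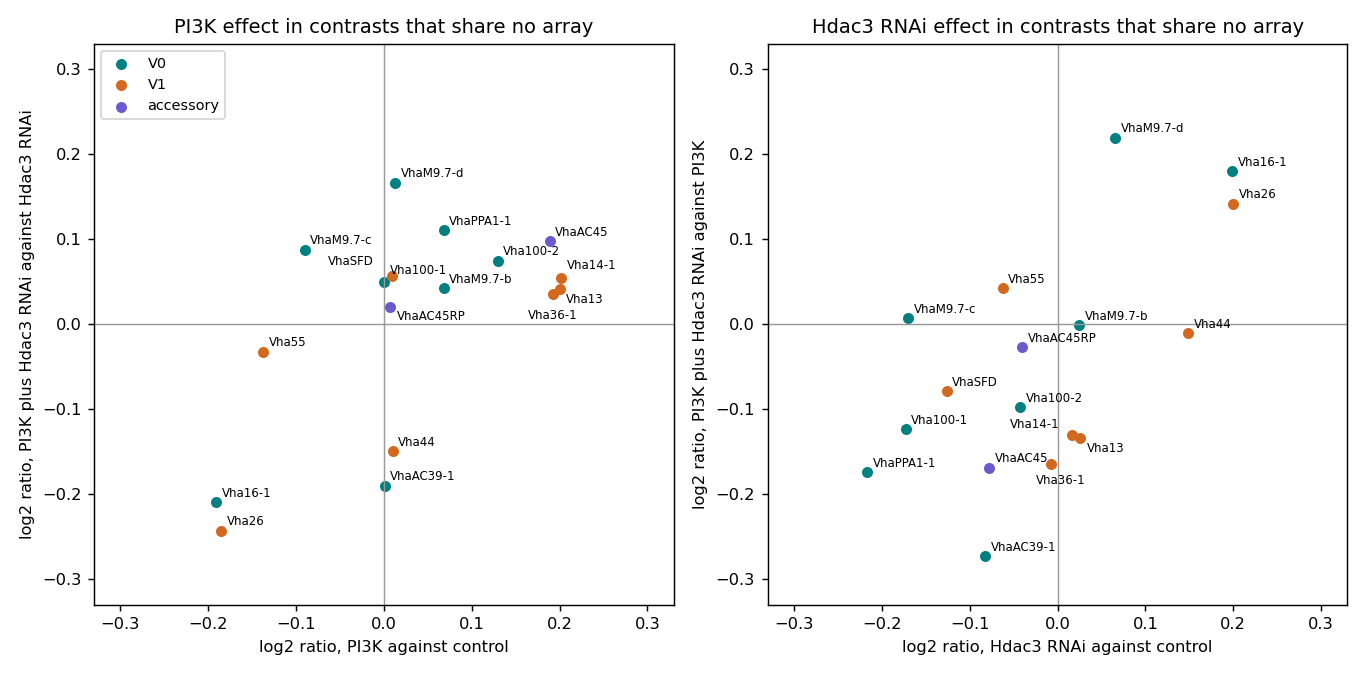
Log2 ratios of the 17 broadly expressed Vha genes in contrasts that share no array, for the PI3K effect (left) and the Hdac3 RNAi effect (right), coloured by sector. Vha16-1 and Vha26 lie together at the lower left for PI3K (about -0.2 on both axes) and at the upper right for Hdac3 RNAi, with Vha16-1 read from its probe set of highest mean. Both panels use the same arrays.

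Neither sector moved as a unit. In PI3K against control the 7 V1 genes had a median of 0.01 and a range of -0.18 to 0.20, and the 8 V0 genes had a median of 0.01 and a range of -0.19 to 0.13. In Hdac3 RNAi against control the medians were 0.02 for V1 and -0.06 for V0. In PI3K plus Hdac3 RNAi against PI3K they were -0.08 for V1 and -0.05 for V0. Both sectors held genes above 0 and genes below 0 in each of these comparisons.

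The subunits also differ in gene span, from 494 bases for VhaM9.7-d to 11825 for Vha44, with a median of 2214, beside 2715 over all genes (RefSeq, Release 6). In PI3K against control, longer genes had lower ratios across 7271 genes (Spearman rho -0.46), with a median of 0.11 in the shortest quartile and -0.17 in the longest. Among the 17 Vha genes rho was -0.43, over points that share both arrays. Vha14-1 (659 bases), Vha36-1 (1064) and Vha13 (1369) are short and were at the upper end, and Vha16-1 (7849) is long and was at the lower end. Vha100-2 (8847 bases, 0.13) and Vha44 (11825 bases, 0.01) are as long and were not low. VhaM9.7-d (494 bases, 0.01), VhaM9.7-c (848 bases, -0.09) and VhaM9.7-b (1354 bases, 0.07) are short and were not at the upper end. The ratio of 3' to 5' signal of the actin control was 2.85 in PI3K plus Hdac3 RNAi, 2.02 in PI3K, 3.25 in Hdac3 RNAi and 3.36 in control, so the PI3K array had the lowest. With the median of genes of like span subtracted, Vha14-1 was at 0.07 and Vha16-1 at -0.10, while Vha100-2 was at 0.27 and Vha44 at 0.15. Beyond this subtraction, the part of span and of 3' to 5' signal in these ratios was not tested.

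**Figure D4:**
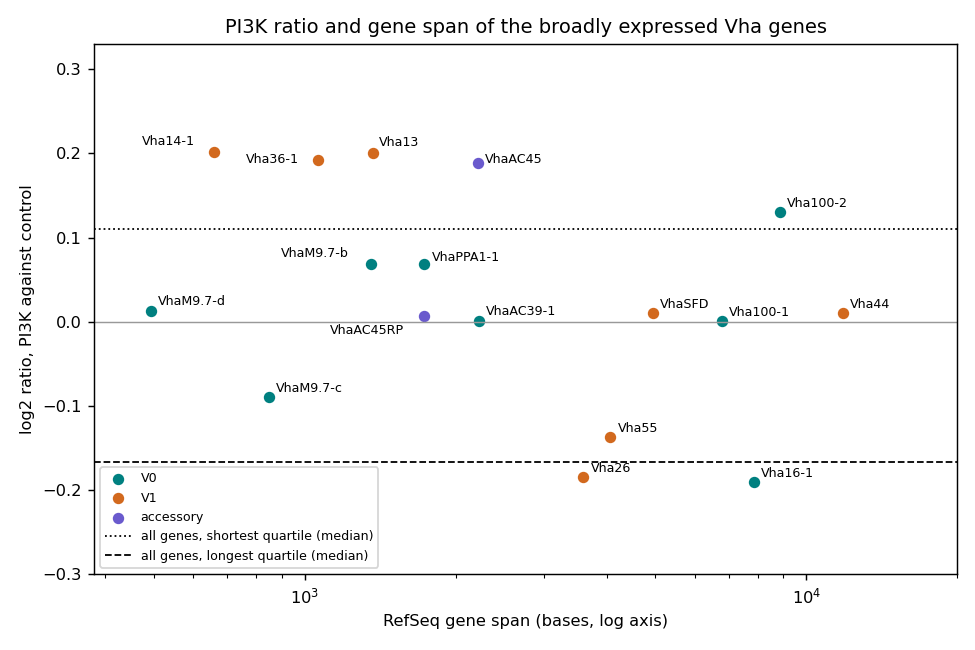
Log2 ratio of PI3K against control for the 17 broadly expressed Vha genes, plotted against gene span (log axis) and coloured by sector, with the medians of the shortest (0.11) and longest (-0.17) quartiles of all genes as horizontal lines. Short V1 genes such as Vha14-1 lie near 0.2 and Vha16-1 near -0.2, with Vha100-2, Vha44 and the short VhaM9.7-c and VhaM9.7-d off that line.

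Summed markers of the fat body, salivary gland and midgut differed far more between arrays than the pump genes. The summed intensity of 5 fat body markers was 825 in PI3K plus Hdac3 RNAi, 12731 in PI3K, 6515 in Hdac3 RNAi and 3059.6 in control, with all 5 at or above the floor on every array. For 10 salivary gland markers, 5 of them under the floor everywhere, it was 499 in PI3K plus Hdac3 RNAi, 4173 in PI3K, 684 in Hdac3 RNAi and 674 in control. For 9 midgut markers, 4 of them under the floor everywhere, it was 309 in PI3K plus Hdac3 RNAi, 3928 in PI3K, 1291 in Hdac3 RNAi and 1506 in control. These sums were highest in PI3K discs and lowest with both transgenes. For the midgut this came from Jon65Aiii, Jon65Aiv and yip7, while betaTry stayed between 90.1 and 97.4 and alphaTry between 28.1 and 35.0. The 10 hemocyte markers, all above the floor, summed to 9718 in PI3K plus Hdac3 RNAi, 8677 in PI3K, 10660.2 in Hdac3 RNAi and 10121 in control. Ppn, at 4785 in PI3K and 5463 in Hdac3 RNAi discs, made up the largest part of this sum. It was lowest in PI3K and highest in Hdac3 RNAi discs, as were Col4a1, vkg and crq. Hml, NimC1, Pxn and srp were instead lowest with both transgenes, and NimC1, LanA and eater were highest in control. The 5 tracheal markers summed to 10876 in PI3K plus Hdac3 RNAi, 8739 in PI3K, 10410.2 in Hdac3 RNAi and 8156 in control. Of 8 markers of the Malpighian tubule, an organ rich in the pump, 5 reached the floor on all arrays and 2 on none. The sum over the list stayed between 2062 in PI3K and 2474 in Hdac3 RNAi discs. Most of it came from tsh (727 in PI3K discs) and Best2 (834 in PI3K discs). The lists overlap: tsh is also among the wing disc markers, and ClC-a is also among the chloride channels, so the sum is not a measure of tubule alone. The 12 wing disc markers summed to 15226 in PI3K plus Hdac3 RNAi, 11031 in PI3K, 16479 in Hdac3 RNAi and 14678 in control. The 6 muscle markers, 2 of them under the floor everywhere, summed to 475 in PI3K plus Hdac3 RNAi, 395 in PI3K, 559.8 in Hdac3 RNAi and 586 in control. The 9 neuron and glia markers summed to 530.2 in PI3K plus Hdac3 RNAi, 516 in PI3K, 618 in Hdac3 RNAi and 633 in control. The part of these tissues in the Vha values was not tested.

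In PI3K against control, the log2 ratios at the 2 ends of each marker list were as follows. Fat body markers ran from Obp99c (0.88) and Fbp1 (1.67) to Fbp2 (2.15) and Obp99b (2.23), and salivary gland markers from Sgs8 (2.30) and Sgs7 (2.63) to Sgs3 (2.86) and Sgs5 (3.08). Midgut markers ran from alphaTry (-0.26) and betaTry (0.09) to Jon65Aiii (1.42) and Jon65Aiv (1.66). Hemocyte markers ran from eater (-0.75) and NimC1 (-0.55) to Ppn (-0.15) and vkg (-0.07), and wing disc markers from ci (-0.73) and bi (-0.67) to ptc (-0.25) and hh (0.09). Malpighian tubule markers ran from tsh (-0.25) and Best2 (-0.20) to ClC-a (0.00) and Irk2 (0.20), and tracheal markers from serp (-0.15) and Gasp (-0.0016) to obst-A (0.37) and btl (0.39). Neuron and glia markers ran from elav (-0.72) and futsch (-0.24) to brp (0.15) and nSyb (0.33), and the 3 measured muscle markers were sls (-0.79), Mlc1 (-0.63) and TpnC73F (-0.17). All of the 17 Vha ratios, at -0.19 to 0.20, lay nearer to 0 than the ends of the fat body and salivary gland lists.

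Of 3 measured genes that work with the pump, Mitf and Rbcn-3B were farther from control in PI3K discs than any of the 17 subunit genes. Mitf, a transcription factor known in flies to activate V-ATPase genes, had 108 in PI3K plus Hdac3 RNAi, 70.2 in PI3K, 113 in Hdac3 RNAi and 113 in control, a log2 ratio of -0.68 in PI3K against control. Rbcn-3B, of the rabconnectin complex that promotes assembly of V1 on V0, had 335 in PI3K plus Hdac3 RNAi, 268 in PI3K, 323 in Hdac3 RNAi and 376 in control, a log2 ratio of -0.48. The TLDc domain gene mtd was at -0.14, and Rbcn-3A is not analysed here. All 3 were higher in PI3K plus Hdac3 RNAi than in PI3K discs, where Mitf was at 0.63. Mitf spans 25616 bases, Rbcn-3B 7906 and mtd 80328, beside a median ratio of -0.17 for the longest quartile of all genes, and the part of span was not tested.

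The mitochondrial ATP synthase, the rotary relative of the pump that makes ATP, had a median of 0.11 in PI3K against control, with 11 of 14 measured members above 0, where all measured genes had a median of 0.02 and 54.4% above 0, as for the lists that follow. Its highest were ATPsynbeta and ATPsynepsilonL (both 0.16) and its lowest ATPsynbetaL (-0.08) and blw (-0.06). Its members span 548 to 4424 bases, and the shortest quartile of all genes also had a median of 0.11. The part of span in the list's median was not tested. Rag, Ragulator and GATOR genes, which carry or regulate amino acid signals to TOR at the lysosome, had a median of 0.05 with 9 of 11 above 0, from RagC-D (0.35) and Nup44A (0.23) down to mio (-0.10) and Iml1 (-0.16). Lysosomal enzymes and membrane proteins had 0.05 with 12 of 18 above 0, with the beta-galactosidase genes Gal at 0.42 and Ect3 at -0.95, cathepsin D (cathD) at 0.28 and the sterol transporter Npc1a at -0.24. Subunits of the HOPS and CORVET tethers had -0.04 with 4 of 8 above 0, from Vps33B (0.19) and Vps16A (0.07) to lt (-0.24) and Vps11 (-0.47). Proton exchangers, chloride channels and sodium pump subunits had -0.10 with 1 of 7 above 0, from ClC-a (0.00) and ClC-b (-0.03) down to Nhe3 (-0.23) and nrv2 (-0.34).

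In PI3K plus Hdac3 RNAi against PI3K, lysosomal enzymes and membrane proteins had the lowest median of these lists, -0.22 with 4 of 18 above 0, beside -0.08 for the Vha genes and a median of -0.03 with 43.7% above 0 for all measured genes. The ATP synthase list was at -0.05, the Rag list at -0.06, the HOPS and CORVET list at -0.07 and the exchanger list at 0.02. Against Hdac3 RNAi the same lists were at -0.05 for lysosomal genes, 0.03 for ATP synthase, 0.03 for Rag genes, 0.01 for the tethers and -0.11 for the exchangers, beside 0.04 for the Vha genes.

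**Figure D5:**
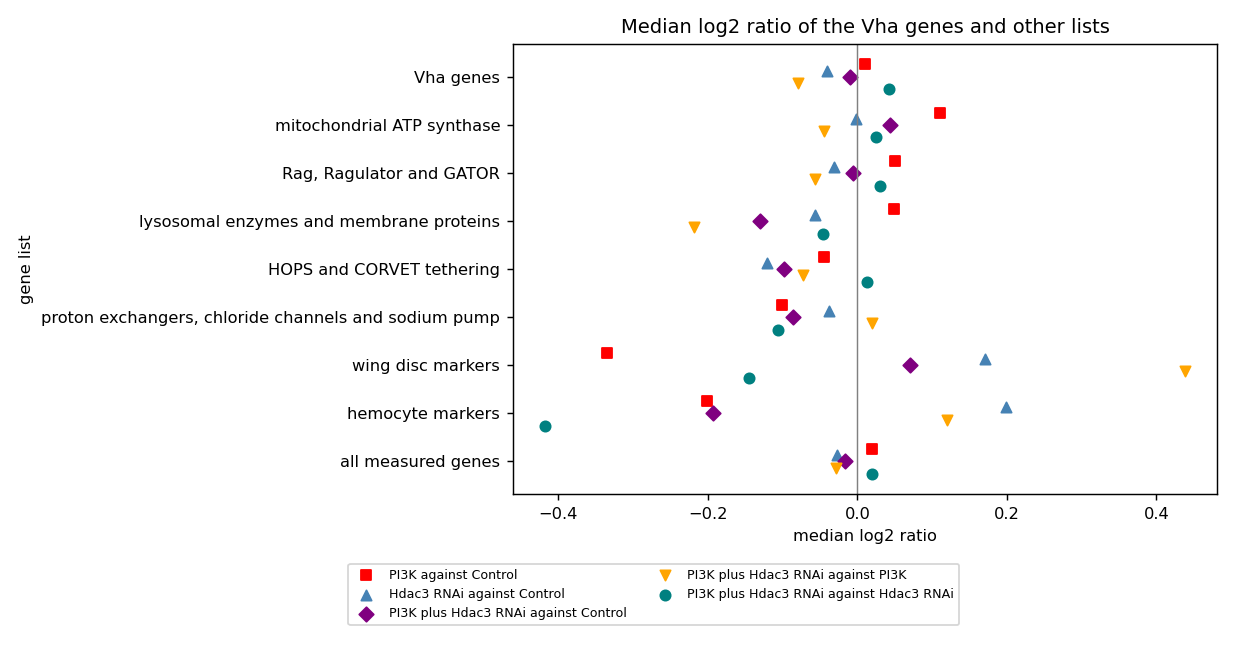
Median log2 ratio (horizontal axis) of the 17 Vha genes, 7 other lists and all measured genes, with 1 point per comparison. The Vha medians lie between -0.08 and 0.04, close to those of all measured genes, while wing disc markers run from -0.33 to 0.44.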

How the data were processed

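The authors deposited 1 table of probe set intensity on a linear scale, 18952 probe sets for each of 4 arrays; MAS5 is the tool named in the submitters' processing notes, and the labels and headers state no version, settings or scaling target for it. The supplied probe annotation, dated 2016, gives 1 symbol to 13646 probe sets, and all 31 Vha symbols matched RefSeq Release 6 by gene ID. Each array was scaled to a common 2% trimmed mean, and log2 ratios were taken with Python 3.11.15, numpy 2.4.6, pandas 2.3.3 and scipy 1.17.1; limma 3.58.1 in R 4.3.3 did the quantile alternative. Steps were tested on simulated data. A gene counted as measured in a comparison where neither array was under the floor. From 15 other lists (143 of 180 entries matched), all genes of lists of up to 4 entries were named, with Vha genes all named. From longer lists the genes with the 2 highest and 2 lowest PI3K ratios were named. Others named for context (nub, vg, ap, yip7, Hml, Col4a1, LanA, Pxn, crq, srp) were picked after their values were seen. The members and lists were chosen with earlier results of these data known. Alternatives tried were the deposited values without rescaling, median and quantile scaling, a lower and a higher floor, the mean of a gene's probe sets, and ratios less the median of genes of like span or level. The probe set SD as a yardstick and the minimum of 0.1 log2 were chosen after the values were seen.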

Additional observations from a re-analysis of the deposited data

How the results depend on the processing

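No paired analysis was possible because there is 1 array per genotype, and for the same reason no replicate could be left out. Under each of 8 alternatives no Vha gene was 2-fold apart in any comparison. The number of broadly expressed genes was 17 with every scaling and with the mean of all probe sets, 24 with the floor at 15.7 (75th percentile of the receptors) and 16 with it at 47.5. Medians near 0 changed sign. Without rescaling, PI3K against control had a median of -0.022 and 7 genes above 0. After subtraction of the median of the span decile it had -0.016 and 8 genes, Hdac3 RNAi against control had 0.004, PI3K plus Hdac3 RNAi against control 0.007, and against Hdac3 RNAi -0.006 with 7 genes. With median scaling, Hdac3 RNAi against control had 0.01 and both transgenes against control 0.027. For both transgenes against control, quantile normalization gave 0.004 and the level decile 0.004. With the floor at the 75th percentile, over 24 genes, Hdac3 RNAi against control had 0.004 and 12 genes above 0, both transgenes against control 0.03 and 14, and both against PI3K 9. No single gene's ratio moved by more than the probe set SD under any alternative. A changed floor cannot alter a ratio, and averaging probe sets alters only Vha16-1. Of 85 ratios, 18 changed sign after subtraction of the span decile median and 9 after that of the level decile. A change of sign came for 9 without rescaling, 8 with median scaling and 7 with quantile normalization. The signs of Vha16-1 and Vha26 held in 4 of the 5 comparisons, the exception being both transgenes against control. Over all settings, with 16 to 24 genes counted, 10 to 15 had the same direction in both contrasts for PI3K and 10 to 14 for Hdac3 RNAi.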

Other observations

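A pair of genes whose RefSeq synonyms carry a Vha name have other symbols in the annotation. ATP6AP2, formerly VhaM8.9, encodes the accessory protein that is also known as the prorenin receptor and acts in Wnt and planar polarity signalling. It had 1930.4 in PI3K plus Hdac3 RNAi, 2355 in PI3K, 1729 in Hdac3 RNAi and 1851 in control discs. Its log2 ratio of PI3K against control was 0.35, above that of each of the 17 Vha genes, and its ratio of PI3K plus Hdac3 RNAi against PI3K was -0.29. CG5421, with the former name VhaAC45-2, lay between 12.8 and 15.1, under the floor on every array.

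A further value is the departure from additivity, taken as both transgenes against PI3K less Hdac3 RNAi against control on the log2 scale. It was farthest from 0 for VhaAC39-1 (-0.19) and VhaM9.7-c (0.18). The same value was -0.06 for Vha26.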
